A study of Mus musculus with 9 samples.

Results

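The oligodendrocyte lineage genes described here are 10 mouse genes, Pdgfra, Cspg4, Cspg5, Vcan, Olig1, Olig2, Sox10, Gpr17, Bcas1 and Neu4, taken by their symbols from 33274 symbols that occur in at least 1 of 9 single-cell count tables. All 10 were listed in 7 tables. Gpr17, Neu4 and Sox10 are not listed for P3 and Gpr17 is not listed for P3 TMZ, and these were treated as missing and not as 0, although the tables of T101, T192, T233, P3, P3 TMZ, T16 and P13 hold no symbol without a transcript. The study profiled mouse-derived cells of glioblastoma (GBM) patient-derived orthotopic xenografts (PDOXs), in which tumor organoids grow in the right frontal cortex of female athymic nude mice, so that tumor cells are human and the microenvironment is of the mouse. The groups are 7 untreated PDOXs (P3, P8, P13, T16, T101, T192 and T233), a PDOX of P3 that received temozolomide (P3 TMZ), and tumor-free normal brain of nude mice (Nu-NB, 1 sample). T192 and T233 come from tumors of the same patient, myelin was removed from the cell suspensions with beads, and cells of P8 and Nu-NB were sorted by FACS whereas the other PDOXs were purified by MACS. The tables of P8 and Nu-NB also differ from the other 7 in their symbols, since they list 654 and 1025 symbols without a UMI and both lack 3611 of the 16383 symbols found in each of the others, and only symbols listed in all samples of a comparison were tested. Labels give no age and do not say whether a sample is 1 animal.

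Oligodendrocyte progenitor cells (OPCs) divide and migrate in the adult brain, and give rise to the cells that make myelin. They are recognized by Pdgfra, the receptor for platelet-derived growth factor A, and by the proteoglycan NG2, the product of Cspg4, while the transcription factors Olig1, Olig2 and Sox10 are held through the whole lineage. When a progenitor commits to differentiation it passes through a short premyelinating state that is marked by the receptor Gpr17 and by Bcas1 and Neu4. NG2 is also known from pericytes, Pdgfra from fibroblasts of the meninges and vessels, and Cspg5 from astrocytes. Here Pdgfra, Cspg4, Cspg5 and Vcan are called early genes, Gpr17, Bcas1 and Neu4 committed genes, and Olig1, Olig2 and Sox10 lineage factors.

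Drop-seq counts unique molecular identifiers (UMIs), 1 for each captured transcript. In all, 14622 cells were kept, between 722 and 2770 per sample, and cells had median depths of 513.5 to 1272.5 UMIs. At most 11 cell barcodes were shared by a pair of samples. Cells were clustered without the 10 genes, and a cluster was called OPC-like from 10 other markers (C1ql1, Lhfpl3, Matn4, Tnr, Cacng4, Pcdh15, Megf11, Emid1, Xylt1 and Sapcd2). Cacng4, like Pdgfra, Cspg4 and Cspg5, was named for OPCs by the study from these samples, so that it is not independent of them. Levels are given as CPM, the UMIs of a gene scaled to a common total of UMIs in a cell class in a sample, with exact 95% Poisson intervals, and shares of cells with exact 95% binomial intervals. Both cover counting error only.

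OPC-like cells numbered 960. They made up 25.3% of cells in P8 (588 cells), 10.9% in T16 (220), 4.01% in T101 (60), 3.57% in T233 (33), 1.82% in T192 (33), 0.650% in P13 (18) and 0.451% in Nu-NB (8). None were found among 777 cells of P3 or 722 cells of P3 TMZ, which allows shares of up to 0.386% and 0.416%. P8 therefore held most of the progenitors, and the sample with FACS sorting among the PDOXs cannot be told apart from its tumor. These shares are of all kept cells, those without a class name included. A cluster led by Cnot2, Rab3ip and Cand1, without a name, held 649 of 1498 cells in T101. Another of 998 cells (841 without a name) was led by Hist1h4c, Gm17511 and Gm11983. It held 222 of 777 cells in P3, 193 of 1810 in T192, 190 of 722 in P3 TMZ and 186 of 2020 in T16. Neither cluster held a cell of P8 or Nu-NB, and what these cells are was not tested. Over all markers, the summed OPC list reached 3820 to 5220 CPM in OPC-like cells of the 6 PDOXs, against 1079 to 1911 CPM for 10 astrocyte markers, 435 to 2754 CPM for 10 myeloid markers, 159 to 1491 CPM for choroid plexus, 292 to 1419 CPM for cell cycle, 41.1 to 897 CPM for mural, 188 to 452 CPM for neuronal and 141 to 632 CPM for oligodendrocyte markers. Transcripts of other classes were thus present in these cells, and their part in the levels below was not tested.

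Early genes were abundant in OPC-like cells of every PDOX that had them. Cspg5, which encodes the growth factor-like proteoglycan neuroglycan C, had 2179 CPM in P8, 2016 in T101, 1973 in T192, 2345 in T233, 1761 in T16 and 1214 in P13. P13 was lowest and the other 5 lay within 1.5-fold of each other, as shown in the plot of levels by sample. A UMI of Cspg5 was found in 61.1% to 75.8% of the cells. Pdgfra, the receptor that holds OPCs in a dividing state, had 1920 CPM in P8, 1477 in P13, 1035 in T101, 985 in T233, 874 in T16 and 493.2 in T192. The P8 interval (1823 to 2022 CPM) lay above those of T101, T192, T233 and T16, and overlapped that of P13 (982 to 2135 CPM). A Pdgfra UMI was present in 73.3% of OPC-like cells of P8 but in 30.3% to 66.7% of those of the other 5 PDOXs, whose cells were also shallower (median 505 to 889.5 UMIs against 924.5 in P8).

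Vcan, the extracellular matrix proteoglycan versican, reached 1214 CPM in P13 and 1059 in P8, and 701 in T16, 657 in T233, 557 in T101 and 534 in T192. Cspg4 showed another order, with 863 CPM in T192, 704 in T233, 610 in T101, 464 in P8, 422 in P13 and 275 in T16. T192 was therefore the highest sample for Cspg4 and the lowest for Pdgfra and Vcan. Its intervals of Cspg4 (534 to 1319 CPM) and Pdgfra (255 to 862 CPM) overlapped, since they rest on 21 and 12 UMIs. In P8 the same genes were apart, with Pdgfra above Cspg4. When cells were instead called one by one from 2 OPC markers (850 cells, 606 of them OPC-like), the means over PDOXs were 728 CPM for Cspg5, 522 for Pdgfra, 286 for Vcan and 269 for Cspg4, against 1915, 1131, 787 and 556 CPM by clusters. The size of these levels thus depended on how the cells were called. These are 3' tag counts and were compared between genes without a correction for length.

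Among the lineage factors, Olig1 had 2064 CPM in T233, 1397 in T192, 1344 in P8, 1266 in P13, 981 in T101 and 856 in T16. Olig2 followed with 891 CPM in T233, 617 in T192, 451 in T101, 422 in P13, 413 in P8 and 263 in T16. Both basic helix-loop-helix factors were highest in T233 and lowest in T16, and Olig1 was above Olig2 in all 6 PDOXs. The genes are neighbors on chromosome 16 of GRCm38, 41094 bases apart. Sox10, the factor that switches on myelin genes, had 281 CPM in T233, 264 in P13, 260 in P8, 186 in T101, 174 in T16 and 41.1 in T192, where it rests on 1 UMI (interval 1.04 to 229 CPM). T192 was low, but its interval reached those of all other PDOXs.

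The committed genes were detected in OPC-like cells of all 6 PDOXs. Bcas1 was the most abundant with 663 CPM in T101, 528 in P13, 411 in T192, 409 in P8, 328 in T233 and 240 in T16. Neu4, a sialidase, had 288 CPM in T192, 235 in T233, 157 in P8, 106 in P13, 89.8 in T16 and 53.1 in T101. Gpr17 ranged from 77.8 CPM in T16 to 188 in T233, with a median of 141. The intervals of Gpr17 overlapped between all pairs of samples, and only P8 (86 UMIs) and T16 (13 UMIs) had more than 10 UMIs of it. With cells called one by one, the mean over PDOXs was 415 CPM for Olig1, 155 for Bcas1 and 58.0 for Gpr17, against 1318, 430 and 141 CPM by clusters, and Olig2, Sox10 and Neu4 were lower as well. Leaving out P8 moved the mean over PDOXs by less than 1 SD for each of the 10 genes.

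**Figure D1:**
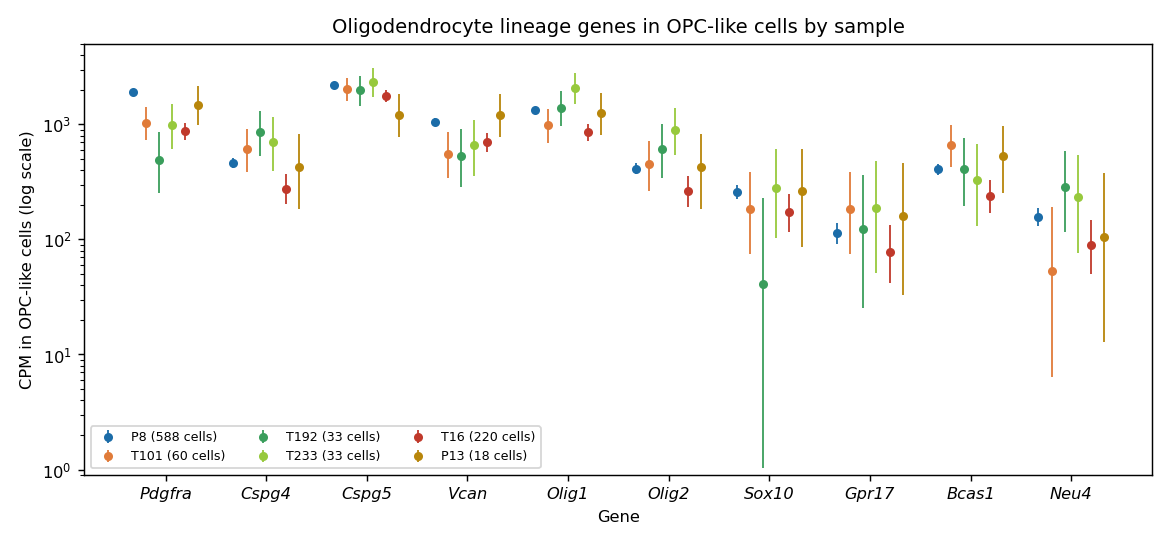
Levels of the 10 genes (CPM, log axis) in OPC-like cells of 6 PDOXs, with exact 95% Poisson intervals as bars. Early genes and Olig1 lie mostly above 500 CPM, Sox10, Gpr17 and Neu4 below 300, and P8 (588 cells) has the narrowest bars.

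In Nu-NB only 8 OPC-like cells with a total of 3831 UMIs were available. They held 6 UMIs of Olig1, 4 each of Pdgfra and Vcan, 2 each of Cspg5 and Sox10, 1 each of Cspg4, Bcas1 and Neu4, and none of Olig2 or Gpr17, which allows up to 783 CPM of either. The limit lies above the Gpr17 level in all PDOXs and above the Olig2 level in 5 of 6. The Olig2 interval of T233 (537 to 1392 CPM) reached below this limit, so that differences of Gpr17 and Olig2 from the normal brain were not detectable at this depth. An edgeR quasi-likelihood test with a minimum of 5 cells, in place of 10, called 0 of 959 genes at FDR of 0.01 and an absolute log2 fold change of 1 (208 had an unadjusted p under 0.05), and thus 0 of the 8 lineage genes tested (background 0%). Cspg5 had the lowest FDR of these 8, with a log2 fold change of 3.16 (SE 0.81). Its CPM was 522 in Nu-NB and 1915 as the mean over PDOXs. The fitted values lay above the CPM in this test. Olig1 had 1.01 (SE 0.68) and Vcan 0.87 (SE 0.73), although their CPM were higher in Nu-NB (1566 and 1044) than as means over PDOXs (1318 and 787). The median log2 fold change over the 959 genes was 0.56.

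The OPC-like cells fell into 2 clusters. The larger held 823 cells with a median of 810 UMIs, and the smaller held 137 cells with a median of 504 UMIs and was led by Meg3, Megf11 and Lrp1b. Cspg5 had 2184 CPM in the larger and 883 in the smaller cluster, and Olig1 1337 and 472 CPM. Vcan (928 and 1391 CPM), Bcas1 (373 and 593 CPM), Neu4 (139 and 230 CPM) and Cspg4 (437 and 617 CPM) had the opposite order. These values pool samples that filled the clusters unequally, with 488 and 100 cells from P8 but 212 and 8 from T16. Within P8 the order was the same, with intervals apart for Cspg5 (2304 and 836 CPM), Olig1 (1429 and 434 CPM), Vcan (1021 and 1471 CPM) and Bcas1 (386 and 650 CPM), and overlapping for Cspg4 (453 and 588 CPM) and Neu4 (150 and 232 CPM). Pdgfra (1985 and 1223 CPM) and Olig2 (435 and 170 CPM) were lower in the smaller cluster of P8, also with intervals apart. Depth differed between these clusters too, also in P8 (median 1115.5 and 531.5 UMIs), and no test was made, because clusters are not replicates.

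To see where else the genes are read, their levels were compared between classes of cells. OPC-like cells had the highest median over PDOXs for each of the 10 genes, with the other classes shown in the plot of levels by class. Since classes were built from the same cells, this is a description. In P8, between 81.1% (Olig2) and 97.5% (Neu4) of all UMIs of Pdgfra, Vcan, the lineage factors and the committed genes were in OPC-like cells, against 71.3% for Cspg5 and 55.1% for Cspg4. In T16 these shares were 20.8% to 44.9% over the 10 genes, and mixed clusters held the most UMIs outside of OPC-like cells. For Cspg4, mixed clusters of T16 held more UMIs than OPC-like cells (66 and 46 of 221). In P13, 15 of 25 Gpr17 UMIs and 47 of 83 Bcas1 UMIs were in mixed clusters, and 3 and 10 in OPC-like cells.

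Cspg5 was also abundant in astrocyte-like cells. There it had 1431 CPM in T233, 1010 in P13, 932 in P8, 891 in T101, 864 in T16 and 685 in T192, and 809 CPM in Nu-NB. Nu-NB lay within the range of the PDOXs, and OPC-like cells were above astrocyte-like cells in 6 of 6 PDOXs, with intervals apart in 4. Over all samples, 39.005% of Cspg5 UMIs came from astrocyte-like and 35.6% from OPC-like cells. Olig1 and Olig2 were low in astrocyte-like cells, with medians of 71.9 and 27.7 CPM over PDOXs. In Nu-NB, which had few progenitors, 28 of 28 Olig2 UMIs and 28 of 34 Olig1 UMIs were nevertheless in astrocyte-like cells.

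Pdgfra was second highest in fibroblast-like cells, with 608 CPM in P8, 513 in T16 and 506 in P13, and 1017 CPM (interval 439 to 2003) in 13 such cells of Nu-NB. The Nu-NB interval overlapped those of all 3 PDOXs. Fibroblast-like cells were below OPC-like cells in each of them, with intervals apart in 2. Outside of the glia, Vcan had 717 CPM in 28 neuronal-like cells of Nu-NB (24 UMIs), against 188 CPM in P13 and 25.9 CPM in T16. Of the 18 Sox10 UMIs of Nu-NB, 2 were in OPC-like cells and 16 in a cluster of 167 cells with Fabp7 and Lpar1 among its leading genes, 92 of them from Nu-NB and 67 from P8, that met no class by its markers.

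**Figure D2:**
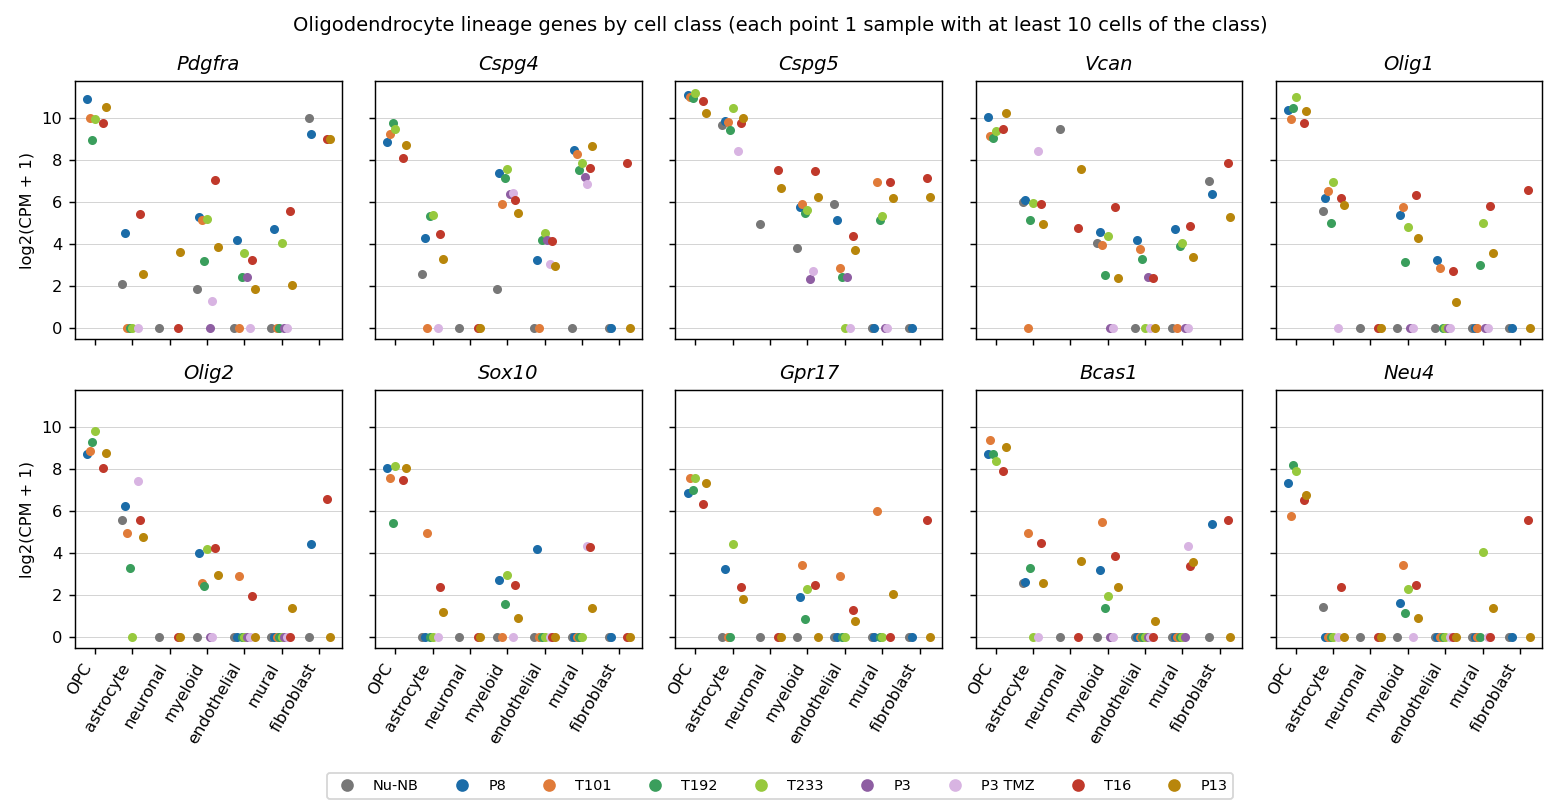
Levels of the 10 genes as log2(CPM + 1) by cell class, with 1 point per sample that had at least 10 cells of the class (class names without the ending -like, points at 0 are samples with no UMI). OPC-like cells are highest by median, with Cspg5 next in astrocyte-like, Pdgfra in fibroblast-like and Cspg4 in mural-like cells.

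Cspg4 was spread more widely than the others. In mural-like cells, which include pericytes, it had 400 CPM in P13, 358 in P8, 308 in T101, 234 in T233, 194 in T16, 180 in T192, 146 in P3 and 115 in P3 TMZ. OPC-like cells were above mural-like cells in 6 of 6 PDOXs, but the intervals were apart in only 2. In P13, 51.5% of 235 mural-like cells had a Cspg4 UMI. No Cspg4 UMI was read in the 15 mural-like cells of Nu-NB, and its interval (up to 437 CPM) covered all PDOXs.

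Myeloid-like cells, the microglia and macrophages of the tumor, held 38.3% of all Cspg4 UMIs over the 9 samples, against 18.5% in OPC-like cells. The order differed between samples, with more UMIs in OPC-like than in myeloid-like cells of P8 (352 and 241), T16 (46 and 15) and T101 (23 and 12), and fewer in T192 (21 and 365), T233 (15 and 201), P13 (8 and 53), P3 and P3 TMZ. Most Cspg4 UMIs of P13 were in neither class. Mural-like cells held 260 of its 671, and unnamed or mixed cells of a cluster led by Ccdc153, Tmem212 and Ak7 held 247. By median over PDOXs, mixed clusters had 107 CPM of Cspg4, above myeloid-like cells (81.3). The level in myeloid-like cells was 190 CPM in T233, 163 in P8, 141 in T192, 81.3 in P3, 66.5 in T16, 58.0 in T101 and 43.6 in P13, and 83.5 in P3 TMZ. Nu-NB had 2.60 CPM, from 1 UMI in 646 cells. All 7 PDOX intervals lay above that of Nu-NB (up to 14.5 CPM), and among all 9348 genes tested 17.2% had every PDOX above and 30.6% every PDOX below Nu-NB. Within the FACS-sorted pair the levels were 163 CPM in P8 and 2.60 in Nu-NB, and no Nu-NB was purified by MACS.

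The myeloid-like cells of these samples lay in different clusters. In Nu-NB 630 of 646 were in a cluster led by P2ry12, Gpr34 and Il7r (median 488.5 UMIs), which held 7.05% (T101) to 61.1% (T16) of those of the PDOXs. P8 had 393 of 545 in a cluster led by Cd74, Rps12 and Ccl6 (median 1318 UMIs), and T192 had 402 of 661 in a cluster led by Ch25h, Il1b and Cst7 (median 2164.5 UMIs). Within the cluster of Nu-NB, which had 2.71 CPM (interval up to 15.1), Cspg4 had 91.7 CPM in T192, 15.4 in P13 and 10.5 in T16, from 3, 4 and 1 UMIs, and no UMI in P8, T101, T233 and P3. Only the T192 interval (18.9 to 268 CPM) lay above that of Nu-NB there. The difference over the whole class was therefore not detectable within this cluster in 6 of 7 PDOXs, where few UMIs were read. In the clusters that held most cells of T192 and P8, Nu-NB had only 1 and 2 cells, so that cluster and group cannot be told apart.

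By median over PDOXs the other lineage genes were lower in the same myeloid-like cells, with 33.9 CPM for Pdgfra, 53.5 for Cspg5, 26.5 for Olig1, 14.5 for Vcan and at most 6.58 for each of the other 5. T16 and P13 departed from this order, with Cspg5 (177 CPM), Pdgfra (129) and Olig1 (79.8) above Cspg4 (66.5) in T16, and Cspg5 (73.2) above Cspg4 (43.6) in P13, while both genes had 12 UMIs in T101. In P3 and P3 TMZ no cells were called OPC-like, and mural-like cells held 146 and 115 CPM of Cspg4. Myeloid-like cells of P3 held 20 UMIs of Cspg4, 1 UMI of Cspg5 and none of Pdgfra, Vcan, Olig1, Olig2 or Bcas1. Those of P3 TMZ held 60 UMIs of Cspg4, 4 of Cspg5, 1 of Pdgfra and none of Vcan or Olig1. P3 and P3 TMZ have 1 sample each and were not tested, and their intervals overlapped (49.6 to 126 and 63.7 to 107 CPM).

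Depth moved with Cspg4 in myeloid-like cells. In all 7 untreated PDOXs and in P3 TMZ, cells with a Cspg4 UMI had a higher median depth than those without, with 3599 against 794 UMIs in P8, 5767 against 1000 in T192, 4836 against 750.5 in T233 and 7729 against 833 in P3 TMZ. Cells with Cspg4 also carried a UMI of Pdgfra, Cspg5 or Vcan more often (29.3% against 5.16% in P8, 20.4% against 4.24% in T192, 7.69% against 0% in P3). The part of depth and of transcripts from other cells, mural-like cells included, in these levels was not tested.

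By edgeR, 2 of 9348 genes (0.0214%) were called in myeloid-like cells of PDOXs against Nu-NB, none of them among the 7 lineage genes tested. DESeq2 called 204 genes, again none of these 7, and without P8 edgeR called 50. Within the cluster of Nu-NB edgeR called 7 of 1868 genes, and no lineage gene had enough UMIs to be tested. Cspg4 had a log2 fold change of 5.63 (SE 1.33, FDR 0.0783, with 0.0123 to 0.115 over the alternatives), in the direction of 7 of 7 PDOXs. Olig1 (log2 fold change 7.75, SE 3.13, FDR 0.194) and Olig2 (6.22, SE 2.87, FDR 0.249) had no UMI in Nu-NB, so that their fitted values depend on the prior count and are no bound. All comparisons with Nu-NB share this 1 sample, and p-values measure the spread between samples, which may be technical in part. T192 and T233, from tumors of the same patient, entered these fits as separate samples, and no fit joined them.

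**Figure D3:**
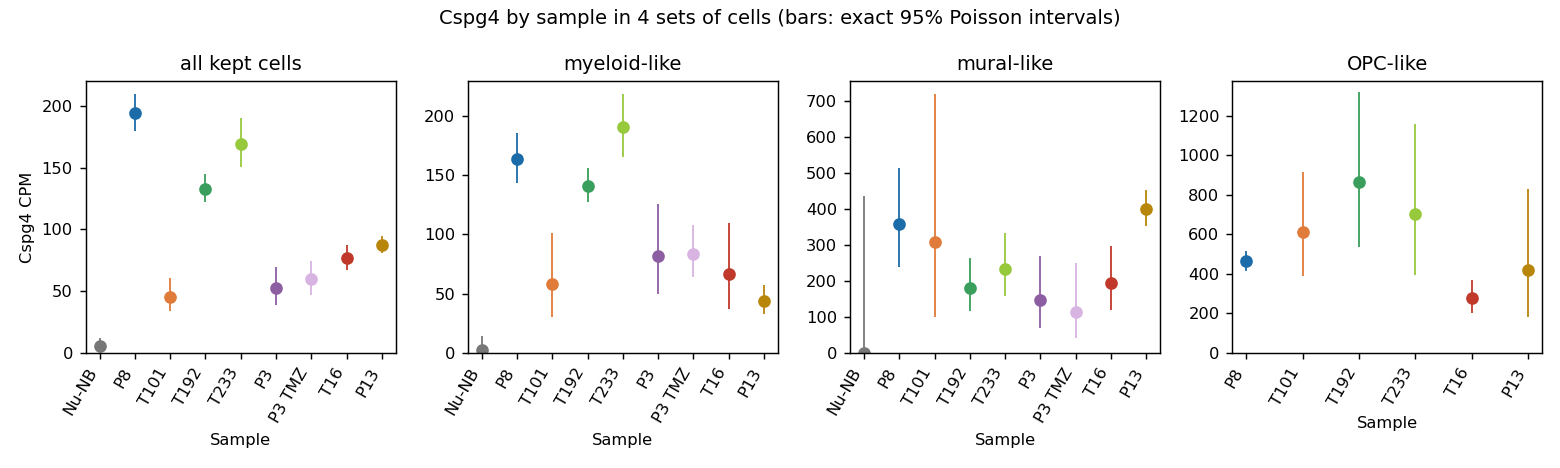
Cspg4 (CPM, linear axes that differ between panels) by sample in all kept cells and in 3 classes, with exact 95% Poisson intervals. In all kept cells and in myeloid-like cells every PDOX lies above Nu-NB, whose myeloid-like cells lay mostly in another cluster than those of P8 and T192, whereas the mural-like interval of Nu-NB (15 cells) covers all PDOXs.

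Summed over all kept cells, Cspg4 had 194 CPM in P8, 169 in T233, 133 in T192, 87.5 in P13, 76.4 in T16, 52.4 in P3 and 45.5 in T101 against 5.77 in Nu-NB. The PDOXs did not overlap with Nu-NB, as for 22.6% of the 12416 genes tested (24.4% had every PDOX below). Cspg5 had 425 CPM in Nu-NB, below P8 (703 CPM) and above the other 6 PDOXs (17.5 to 342 CPM), and astrocyte-like cells made up 48.2% of cells in Nu-NB. Pdgfra ranged from 5.46 CPM in P3 to 476 in P8 with a median of 39.5, against 14.0 in Nu-NB. Cells without a class name held part of such sums. They had 89 of 203 Pdgfra UMIs in P13 (83 in the cluster led by Hist1h4c) and 33 of 81 in T192. They also had 121 of 155 Vcan UMIs in T101 (119 in the cluster led by Cnot2) and 10 of 12 Olig1 UMIs in P3. In P8, by contrast, OPC-like cells held 1456 of 1568 Pdgfra UMIs. For Pdgfra, Cspg5, Vcan, Olig1, Olig2, Sox10, Bcas1 and Neu4, PDOXs lay on both sides of Nu-NB, and Gpr17 had no UMI in Nu-NB and 1.55 to 28.8 CPM in the 6 PDOXs that list it. In sums over a whole sample, fewer cells of a type and less RNA per cell cannot be told apart.

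In that comparison edgeR called 0 of 12416 genes (2340 with an unadjusted p under 0.05), whereas DESeq2 called 137. Cspg4 had a log2 fold change of 4.45 (SE 1.06) with an FDR of 0.179 by edgeR and of 0.000875 by DESeq2, the only one of the 7 lineage genes tested that either tool called. Nu-NB as 1 sample adds no spread of its own to these fits, which assume that normal brain varies like the PDOXs. No lineage gene was called in astrocyte-like cells, where edgeR called 0 of 5957 genes (625 with an unadjusted p under 0.05, DESeq2 1), or in endothelial-like cells, where it called 0 of 6269 (844, DESeq2 2). In endothelial-like cells only 1 lineage gene, Cspg5, was tested (log2 fold change -1.32, SE 1.80 by edgeR), and DESeq2 gave it no FDR. In astrocyte-like cells Cspg5 had a log2 fold change of 0.24 (SE 0.50). None of the 4 lineage genes tested there had all PDOXs on 1 side of Nu-NB, where 14.5% of all genes had every PDOX above and 19.3% every PDOX below. In simulated counts for all kept cells, this fit recovered 54.0% of genes changed 4-fold.

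To set early against committed genes, the committed share of UMIs was computed over the 7 early and committed genes in OPC-like cells. It was 17.6% in T101 (interval 12.5 to 23.7), 17.5% in T192 (11.1 to 25.8), 15.5% in P13 (8.92 to 24.2), 13.8% in T233 (8.09 to 21.4), 10.8% in P8 (9.91 to 11.7) and 10.1% in T16 (7.96 to 12.7). The intervals of T101 and P8 were apart, and those of all other pairs overlapped. The 34 committed UMIs of T101 were 25 of Bcas1, 7 of Gpr17 and 2 of Neu4. Neu4 alone went the other way, with 53.1 CPM in T101 and 157 in P8. In Nu-NB 2 of 13 UMIs were of committed genes. Early genes thus made up most of these UMIs in all 6 PDOXs. The mean committed share was 14.2%, and 23.1% when Cspg5 was left out of the early genes.

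In single cells, OPC-like cells with at least 500 UMIs were thinned to 500 UMIs and shallower cells were left out, so that the shares describe the deeper cells (426 of 588 in P8, 150 of 220 in T16, 32 of 60 in T101, 21 of 33 in T233, 17 of 33 in T192 and 17 of 18 in P13). In P8, 24.4% of the cells held UMIs of both kinds, 68.5% of early genes only, 3.05% of committed genes only and 3.99% of neither. T16 had 15.3% with both, 64.7% with early, 2.67% with committed and 17.3% with no such UMI. In T101, T192, T233 and P13, 21.9% to 35.3% held both. Cells with both kinds numbered 104 in P8 and 23 in T16, where the shares of each kind alone would give 109 and 21.6 if they were independent.

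A committed UMI was found in 18% to 41.2% of OPC-like cells over the 6 PDOXs (median 28.8%), against a median of 0.484% in astrocyte-like, 0.307% in myeloid-like and 0% in endothelial-like cells at the same depth. Before thinning the P8 medians were 924.5 UMIs in OPC-like and 1045 in myeloid-like cells. Early UMIs were found in 80% to 92.96% of OPC-like, in a median of 35.7% of astrocyte-like, 15.4% of mural-like, 8.16% of myeloid-like and 2.29% of endothelial-like cells. In these 4 classes committed UMIs were thus less frequent than early UMIs by median. Other classes were not thinned. Over all samples and without thinning, OPC-like cells held 63.7% of Gpr17, 69.7% of Bcas1 and 77.0% of Neu4 UMIs, and mixed clusters 12.6%, 11.6% and 7.65%. A Bcas1 UMI was found in up to 18.2% of choroid plexus-like and 12.5% of ciliated ependymal-like cells of a PDOX, at levels of up to 14.6 and 51.0 CPM.

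**Figure D4:**
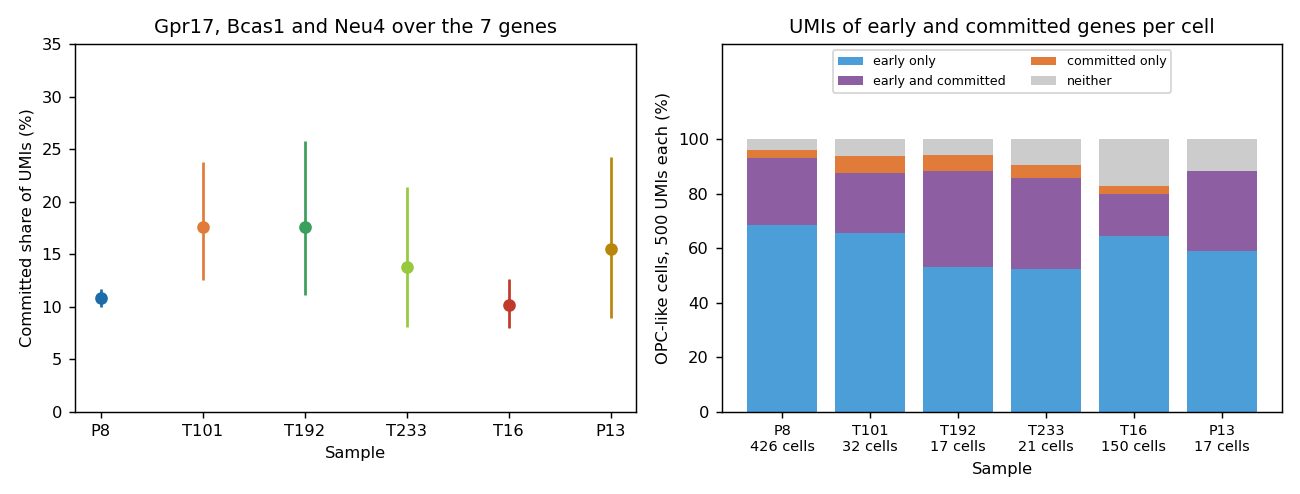
Left, share of UMIs of Gpr17, Bcas1 and Neu4 among UMIs of the early and committed genes (%, exact 95% binomial intervals), 10.1% to 17.6% over 6 PDOXs. Right, OPC-like cells thinned to 500 UMIs by the kinds of UMI they hold (% of the cells given under each bar), with early genes only in 52.4% to 68.5% of cells.

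Cells with a committed UMI were then compared with the other OPC-like cells of the same sample. Only P8 (117 and 309 cells) and T16 (27 and 123 cells) had 10 cells on either side, so that a two-sided exact sign-flip permutation test cannot go below p = 0.5. A UMI of an early gene was present in 88.9% of committed and 94.5% of other cells in P8, and in 85.2% and 78.9% in T16, which go opposite ways (exact permutation p = 1). Lineage factors were present in 65.8% and 59.9% in P8 and in 40.7% and 44.7% in T16 (exact permutation p = 1). Cell cycle genes were lower with committed UMIs in both samples, by 2.39 and 1.17 percentage points, and myelin genes higher by 5.10 and 3.07 points (exact permutation p = 0.5 each, 1 after Benjamini-Hochberg adjustment over 4 tests). Binomial intervals of the groups overlapped for these 4 lists in both samples. The difference of cell cycle genes turned to 0.395 points with doublets kept and 2.71 without thinning, and myelin genes turned to -7.59 points at 1000 UMIs.

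Of single genes, Vcan was found in 49.6% of committed and 36.2% of other cells in P8, and in 40.7% and 22.0% in T16. Cspg5 showed 53.8% and 66.7% in P8, and 48.1% and 58.5% in T16. Over all genes, edgeR with a term for each sample gave Vcan a log2 fold change of 0.79 (SE 0.17, unadjusted p 0.00299, FDR 0.99976) and called none of the 7 lineage genes tested. It called 1 of 1243 genes (0.0805%), the mitochondrial ribosomal RNA mt-Rnr2, with a log2 fold change of 0.14 (SE 0.011, FDR 0.0110). With DESeq2's size factors no gene was called.

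Other genes of the lineage were read in the same OPC-like cells, from lists of OPC genes, committed progenitors, lineage regulators and partners of PDGF and NG2. All 13 genes of the OPC list had UMIs and a higher median than in astrocyte-like cells, 10 of which served to name the clusters. In the other lists 9 of 14 committed progenitor genes, 9 of 16 lineage regulators and 3 of 11 partners of PDGF and NG2 were higher than in astrocyte-like cells. Ptprz1, a receptor phosphatase, had a median of 2362 CPM, Cacng4, an auxiliary protein of AMPA receptors, 1525, Scrg1 674 and Matn4 370. Ptprz1 was high in astrocyte-like cells too (2056 CPM). Among committed progenitor genes, 13 of 14 had UMIs, with medians of 904 CPM for the tetraspanin Cd9, 227 for Sirt2, 185 for Itpr2 and 123 for Fyn, but Cd9 and Itpr2 were higher in myeloid-like cells (1522 and 204 CPM). Enpp6 and Bmp4, named here after their values were seen, had 0 and 5 UMIs.

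All 16 lineage regulators were detected, among them Id2 (337 CPM), Zeb2 (291) and Sox6 (242). Sox6 was higher than in astrocyte-like cells (80.3 CPM), whereas Id2 was lower (948 CPM). All 11 PDGF and NG2 partners had UMIs, led by Ptprz1, Tnr (465 CPM), Bcan (431) and Itgav (150). The ligand genes Pdgfa and Pdgfb, also chosen after their values were seen, had 6.59 and 0.659 CPM in OPC-like cells, against 67.5 CPM of Pdgfa in myeloid-like and 86.4 CPM of Pdgfb in endothelial-like cells. Of 10 oligodendrocyte genes 8 had UMIs, with 67.6 CPM for Cnp, while Mbp had a median of 0 and Mog and Opalin had no UMI where listed. Among 18 cell cycle genes Pcna (126 CPM) and Top2a (88.0) led. None of the genes of these lists was called against Nu-NB or in committed cells by edgeR.

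By pattern over 63 sums of a class in a sample, the genes most like the summed early genes were Scrg1 (Pearson r of log2(CPM + 10) 0.817), Lsamp (0.810), Nrxn2 (0.774), Spon1 (0.763) and Kcnip3 (0.762). For the committed genes, over 53 sums, they were Emid1 (0.882), 3110035E14Rik (0.851), Tnr (0.845), Mmp15 (0.838) and Pdzrn4 (0.834), among 2195 genes compared. Emid1 and Tnr named the clusters. Sums of one sample share a library, and these values are descriptions.

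Promoter sequence was available from RefSeq for 5 of the 10 genes (build GRCm38.p6). Stretches of 150 bases, from 250 to 100 bases before the start in the RefSeq table, are shown for 2 early genes and 1 committed gene that were read together in OPC-like cells, 5′ to 3′ on the strand of the gene. Capitals mark CANNTG, the E-box to which basic helix-loop-helix factors such as Olig1 and Olig2 bind.
Pdgfra, chr5:75152001-75152150, plus strand: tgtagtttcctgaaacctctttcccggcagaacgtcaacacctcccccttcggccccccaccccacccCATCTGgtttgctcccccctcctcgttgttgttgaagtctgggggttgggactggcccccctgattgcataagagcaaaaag
Vcan, chr13:89742613-89742762, minus strand: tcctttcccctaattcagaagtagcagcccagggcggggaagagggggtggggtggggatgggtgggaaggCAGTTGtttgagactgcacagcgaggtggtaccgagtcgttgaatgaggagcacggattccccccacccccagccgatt
Neu4, chr1:94020243-94020392, plus strand: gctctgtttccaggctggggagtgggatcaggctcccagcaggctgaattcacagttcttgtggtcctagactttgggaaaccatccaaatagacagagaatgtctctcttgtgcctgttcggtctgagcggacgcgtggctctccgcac

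CANNTG was found once each in the stretches of Pdgfra and Vcan and in none of those of Cspg4, Olig2 and Neu4, and 49.3% of 32851 such stretches hold it. ACAAAG and ACAATG, read on both strands as cores of SOX factor sites, were in 0 of the 5, against 10.4% and 6.66% of all stretches. In the gene annotation of GRCm38, whose starts differ from those of the RefSeq table for some genes, Pdgfra lies on chromosome 5 (75152292 to 75198215), Cspg4 on chromosome 9 (56865033 to 56899870), Cspg5 on chromosome 9 (110243783 to 110262576), Vcan on chromosome 13 (89655312 to 89742509) and Neu4 on chromosome 1 (94020451 to 94028334). The matches are descriptions of these letters and were not linked to the levels.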

How the data were processed

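The authors processed Drop-seq reads with bcl2fastq 2.0 and STAR, separated species by mapping to human and mouse (mm10, GRCm38), and deposited raw UMI counts of mouse-derived cells. These counts were checked to be whole numbers, and total UMIs per table ranged from 1294068 to 8410580. Reads were assigned to genes by the authors, with strand handling not given in the sources used here. The 10 genes, the lists and the tests were chosen with earlier results of these data known.

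Cells needed at least 200 genes and no more than 30% mitochondrial UMIs. In each sample the 5% of cells that scrublet scored highest were dropped. The rest were clustered by scanpy 1.11.5 and leidenalg 0.10.2 (2000 variable genes, 30 components, 20 neighbors, resolution 1) without the 10 genes and without batch correction. A class name needed at least 3 of its markers and 50% of them, 30% of cells with 2 of them, and leading genes that did not go against it. Clusters of at least 60 cells without a name were clustered once more. This naming rule was revised 3 times, so that it had 4 forms, with clusters and cell counts per sample in view. Before the last revision, levels of the 10 genes in 2 clusters had been seen, and that revision removed cells with low levels of them. Results under the first forms were not kept, and the form before the last is an alternative that was chosen after seeing the data, as were no thinning, leaving out each PDOX for the levels, and myeloid-like cells of 1 cluster. The last condition also left cells with myeloid markers unnamed or mixed, as in 912 of 1279 cells of a cluster with Cst7, Spp1 and Ctsd as leading genes, which fell into sub-clusters led by Hbb-bt, Ttr and Mlxipl and had 174 CPM of Cspg4, so that the myeloid-like class covers only a part of them. The myeloid-like test was not repeated without that condition.

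Sums of counts over at least 10 cells of a class in a sample were compared by edgeR 4.0.16 (quasi-likelihood, TMM, filterByExpr) and, as an alternative, DESeq2 1.42.0, on R 4.3.3. Calls needed FDR of at most 0.01 and an absolute log2 fold change of at least 1 against Nu-NB, and FDR of at most 0.05 in committed cells. Both fits were tested on simulated data. Intervals and exact permutation tests used scipy 1.17.1 on Python 3.11.15. Of each list, up to 4 genes with the most UMIs in OPC-like cells were named, besides genes past a threshold and the 5 genes nearest in pattern. In committed cells, thinning left 2 samples. Alternatives were other tests, scalings, depths, filters and cell calls, and leaving out each PDOX. Values of some genes of these lists are not reported here.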

Additional observations from a re-analysis of the deposited data

Results flagged for a closer look

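In 9 of 26 groups of PDOXs tested, 1 sample stood apart from the others by Dixon's criterion, which chance does in about 1 of 20 groups. P8 was that sample in 8 of them. Over all kept cells it was highest for Pdgfra (476 CPM, others up to 146), Olig1 (342, others up to 123), Olig2 (117, others up to 40.8), Sox10 (65.6, others up to 22.8), Gpr17 (28.8, others up to 11.8), Bcas1 (99.9, others up to 35.05) and Neu4 (37.0, others up to 12.5). Its share of OPC-like cells was 25.3%, with up to 10.9% in the others. These 8 are 1 pattern, because the genes share the OPC-like cells. All kept cells include the clusters led by Cnot2 and by Hist1h4c, which held no cell of P8. In myeloid-like cells T16 was highest for Pdgfra with 129 CPM, against up to 37.2 CPM in the other 6 PDOXs.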

How the results depend on the processing

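No paired analysis was possible because Nu-NB is 1 sample and shares no pairing with the PDOXs. Levels in OPC-like cells and the committed share moved by less than 1 SD when doublets or shallow cells were treated differently, with the earlier naming rule, and without any PDOX. When cells were called one by one from 2 OPC markers (850 cells, 606 of them OPC-like), mean levels over PDOXs were 522 CPM for Pdgfra, 269 for Cspg4, 728 for Cspg5, 286 for Vcan, 415 for Olig1, 152 for Olig2, 92.5 for Sox10, 58.0 for Gpr17, 155 for Bcas1 and 53.3 for Neu4, below the main means. Without each PDOX the means ranged over 973 to 1258, 495 to 613, 1828 to 2055, 702 to 837, 1169 to 1411, 433 to 559, 185 to 232.9, 132 to 154, 383 to 468 and 128 to 175 CPM in the same order, and the committed share over 13.5% to 15.0%. Without Cspg5 the committed share was 23.1%, since fewer early UMIs enter it.

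Genes called against Nu-NB by DESeq2 were 137 in all cells, 1 in astrocyte-like, 204 in myeloid-like and 2 in endothelial-like cells. Without a filter on low counts 43 were called in astrocyte-like cells, and in myeloid-like cells 1 with doublets kept and 7 within the cluster that holds most of Nu-NB, where 1868 genes were tested. Without each PDOX the counts ranged from 0 to 6 in all cells (6 without P8, 1 without P3), 0 to 11 in astrocyte-like (11 without P8), 1 to 50 in myeloid-like (50 without P8, 7 without T16, 4 without P13, 1 without T192 or T233) and 0 to 0 in endothelial-like cells. OPC-like cells had a fit with at least 5 cells only, with 0 calls. Median log2 fold changes of all genes were 0.13 by TMM and 0.10 by DESeq2's size factors in all cells, but 0.70 and 0.44 in endothelial-like cells. Cspg4 in all cells passed the threshold by DESeq2 only (log2 fold change 4.41, FDR 0.000875, FDR of 0.0745 to 0.256 under the other alternatives). Olig2 in all cells ranged from -0.070 (without P8) to 0.79 (without P13) without each PDOX, Cspg5 in astrocyte-like cells was -0.20 with at least 500 genes per cell, and Vcan in myeloid-like cells ranged from -0.082 (without T16) to 0.48 (without T192).

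In committed cells, early genes differed by -4.34 points with Gpr17 alone and -0.205 with doublets kept, lineage factors by -3.90 at 1000 UMIs, cell cycle genes by 0.395 with doublets kept and 2.71 without thinning, and myelin genes by -7.59 at 1000 UMIs. Leaving out T16 or P8 gave -5.61 to 6.32 for early genes, -3.97 to 5.94 for lineage factors, -2.39 to -1.17 for cell cycle genes and 3.07 to 5.10 for myelin genes. Calls over all genes were 0 by DESeq2's size factors, without a filter, at 300 UMIs, with doublets kept, without thinning and with the earlier naming rule, 2 at 1000 UMIs and 9 with cells called one by one. Log2 fold changes that turned were those of Pdgfra (0.21 at 300 UMIs, 0.083 at 1000 UMIs, 0.21 one by one, 0.036 without thinning), Cspg4 (-0.0034 without thinning), Cspg5 (0.011 with the earlier naming rule), Olig2 (0.12 by DESeq2, 0.19 one by one, 0.017 with the earlier naming rule) and Sox10 (0.13 by DESeq2, 0.41 with doublets kept, 0.91 one by one), none of which passed the threshold. The cause was not tested. There was 1 Nu-NB, and OPC-like cells of a sample held at most 86 UMIs of Gpr17, so that depth limits what can be said of the low genes. Not run were endothelial-like cells with at least 500 genes (Nu-NB had under 10) and, over all genes in committed cells, the split by Gpr17 alone and leaving out a sample, since neither leaves residual degrees of freedom.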
